A study of Macaca fascicularis with 15 samples.

Results

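Nuclear genes that encode subunits of the mitochondrial respiratory chain were followed through whole eye, whole retina, central retina and peripheral retina of the cynomolgus monkey (Macaca fascicularis) by RNA sequencing. Members were taken by name: entries beginning with NDUFA, NDUFB, NDUFC, NDUFS or NDUFV and a number, with UQCR, with COX4 to COX8 or with ATP5, together with SDHA to SDHD and CYC1. This gave 63 genes of 12995, of which 26 carry complex I names, 3 belong to complex II, 8 to complex III, 13 carry complex IV names and 13 complex V names. Expression values were analysed for 4 libraries of central retina, 3 of peripheral retina, 2 of whole retina and 2 of whole eye, and 4 further records, which carry the source names of these whole retinas and whole eyes a second time, were not analysed here. All samples were wild type, the tissue had been held in RNALater, an RNA-preserving solution, and each sample came from 1 eye. The labels give no treatment, animal, age or batch. Biological replicates are stated for eye and retina. For the regional samples the labels do not say if different animals were used, so p-values reflect the variation among these libraries alone, and it may be technical.

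The respiratory chain sits in the inner mitochondrial membrane and passes electrons from NADH (complex I) and succinate (complex II) through complex III to oxygen at complex IV, and complex V, the ATP synthase, uses the proton gradient so formed to make ATP. Most of its subunits are nuclear genes, while a few central subunits of complexes I, III, IV and V are encoded by mitochondrial DNA. Photoreceptors are known for packing their inner segments with mitochondria, and the axons of ganglion cells inside the eye are also rich in them. Mitochondrially encoded subunits were not analysed here, nor were SDHA, NDUFV1, COX5B, COX6A1, COX7A2, COX7B2, COX8C and NDUFA4L2. A few members match by name alone. NDUFA4 is now placed with complex IV, COX7A2L acts in the joining of complexes III and IV, and COX4NB and ATP5SL are not subunits of the complexes that their names recall.

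Values are the authors' normalized signal per gene with no stated unit, called deposited values here, and absolute sequencing depth is unknown. They summed to between 308094 and 335644 in central, 299480 and 323582 in peripheral, 357031 and 359862 in whole retina and 356677 and 375035 in whole eye libraries, and between 171 and 501 genes were listed at 0 in a library. The labelled tissues were compared with marker genes. Ganglion cell markers (6 genes) summed to 1967 to 3802 in central and 353 to 647 in peripheral libraries, and rod markers (7 genes) to 10648 to 18796 in central and 17370 to 25714 in peripheral libraries. Whole retina libraries also carried markers of smooth muscle and pericytes, lens and pigment epithelium. The 3 smooth muscle and pericyte genes summed to 8.04 to 11.9 in central, 7.26 to 9.97 in peripheral, 1201 to 1399 in whole retina and 576 to 1199 in whole eye libraries. The 5 lens genes summed to 1.62 to 4.67 in central, 2.1 to 4.81 in peripheral, 365 to 526 in whole retina and 2696 to 2955 in whole eye libraries, with LIM2 at 0 in at least 1 library. The 3 pigment epithelium genes summed to 50.2 to 123 in central, 296 to 438 in peripheral, 1725 to 1848 in whole retina and 1814 to 2047 in whole eye libraries. The 2 epithelial keratins summed to 0.08 to 0.3 in central, 0.07 to 2.59 in peripheral, 0.95 to 28.3 in whole retina and 561 to 608 in whole eye libraries, with KRT14 at 0 in at least 1 library, and the 2 blood genes to 14.35 to 65.4 in central, 23.2 to 59.7 in peripheral, 109.9 to 383 in whole retina and 1497.5 to 2495 in whole eye libraries. In tissue samples such as these, fewer cells of a type and less RNA per cell cannot be told apart.

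The subunit genes as a group made up 2.46% to 3.09% of the summed values in central libraries, 2.42% to 2.44% in peripheral libraries, 2.37% and 3.29% in the 2 whole retinas and 3.03% and 2.92% in the 2 whole eyes. The 3 peripheral libraries lay close together, whereas the 2 whole retinas held the lowest and the highest share of the 11 libraries. Of the 62 members with a mean of at least 1 in some group, which are those tested below, 61 were higher in whole retina replicate 2 than in replicate 1, by a median of 0.43 on the log2(value + 1) scale. Among all 11933 tested genes the corresponding share was 44.9% and the median -0.04. Within central retina the members were likewise mostly higher in replicates 2, 3 and 4 than in replicate 1, in 51, 48 and 53 of 62 members. Of all tested genes, 56.8%, 48.6% and 47.7% were. The remaining member, ATP5J, a peripheral stalk subunit of the ATP synthase, was listed between 0.10 and 0.41 in every library and was not tested.

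**Figure D1:**
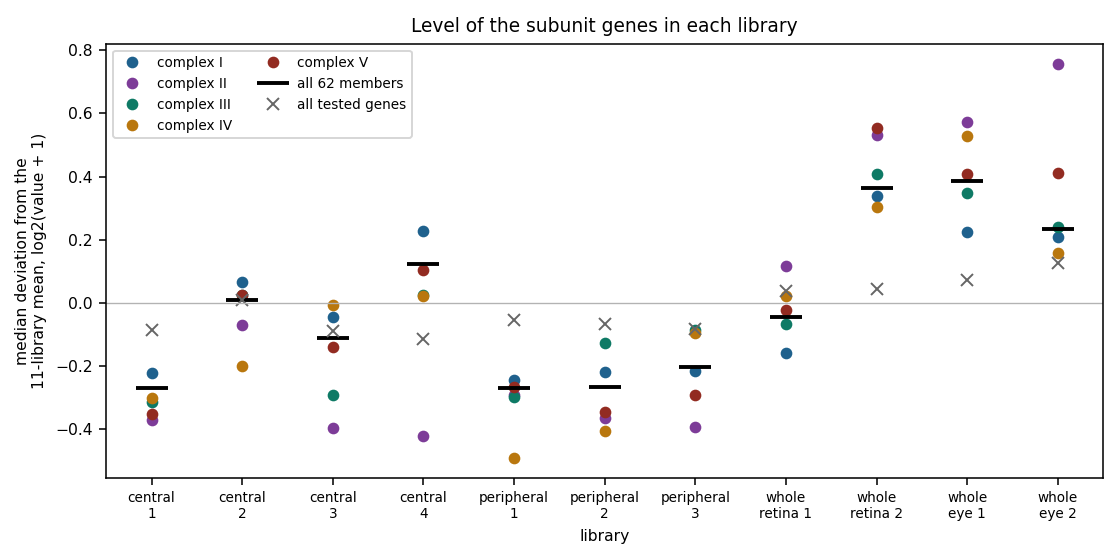
Median deviation of the subunit genes from their mean over 11 libraries (y axis, log2(value + 1)) in each library (x axis), for complexes I to V (coloured points), all 62 tested members (black bars) and all tested genes (crosses). Whole retina replicate 2 and both whole eyes lie highest for the members (0.36, 0.38 and 0.24), and whole retina replicate 1 lies at -0.05.

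Central retina was first compared with peripheral retina, the comparison between regions of the neural retina. UQCRC1 and CYC1 of complex III, a core protein and a catalytic subunit, were higher in central retina, with means 1.47 and 1.42 times those of peripheral retina. They were among 3 of 62 members past the threshold, an adjusted p under 0.05 in limma's moderated test over all genes (background 12.5% of all tested genes higher), and 0 members were lower (background 8.76% lower). Log2 differences are those of limma on log2(value + 1), given ± their standard error. Of the fitted differences, 48 of 62 were positive, with a median of 0.22 on the log2 scale. Over all tested genes 5755 of 11933 were positive, with a median of -0.01. Every central library lay above every peripheral library in 10 members, or 16.1% (background 19.0%), and below in 0 members (background 15.6%). The members called and the members that did not overlap were thus no more frequent than among all genes. Without adjustment, 14 members (22.6%) had a p under 0.05 in the higher direction and 1 (1.61%) in the lower, against 18.9% and 16.8% of all tested genes.

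In complex I, NDUFS1, the large iron-sulphur subunit of the arm that takes electrons from NADH, had 31.15, 34.6, 29.65 and 32.2 in central and 28.5, 28.9 and 27.1 in peripheral retina. The groups did not overlap, but the gap was small (log2 difference 0.17 ± 0.12, adjusted p = 0.331 by limma). Among other core subunits, NDUFS8 differed by 0.48 ± 0.20, NDUFS3 by 0.22 ± 0.13 and NDUFV2 by 0.03 ± 0.19, none past the threshold. Of the 26 complex I members, 21 had a positive log2 difference and 5 a negative one, with a median of 0.23. The 5 with a negative difference were NDUFA1, NDUFB5, NDUFA5, NDUFS4 and NDUFC1, and none passed.

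Complex II showed no call. SDHB, its iron-sulphur subunit, had 64.5, 75.1, 61.6 and 85.6 in central and 63.8, 60.6 and 61.0 in peripheral retina, and the groups overlapped (log2 difference 0.20 ± 0.14, adjusted p = 0.336 by limma). The membrane anchors SDHC and SDHD, which carry the quinone site, differed by 0.21 ± 0.18 and -0.18 ± 0.16.

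In complex III, UQCRC1, a core protein of the cytochrome bc1 complex, had deposited values of 279, 220.4, 249.8 and 301 in central retina, against 164, 169 and 201 in peripheral retina. The lowest central library lay above the highest peripheral one, and the means were 262 ± 35.0 and 178 ± 20.3 (SD, n = 4 and 3). The log2 difference was 0.55 ± 0.16 and passed limma's test (adjusted p = 0.0343). CYC1, the cytochrome c1 that hands electrons to cytochrome c, had 346, 329, 391 and 434 in central retina and 243, 235 and 313 in peripheral retina. These groups did not overlap either, although peripheral replicate 3 came close to the lowest central library, and the log2 difference was 0.51 ± 0.16 (adjusted p = 0.0476 by limma). Besides CYC1, the other catalytic gene among the members was UQCRFS1, which encodes the Rieske iron-sulphur protein. It had 33.3, 46.8, 34.0 and 41.4 in central and 38.5, 29.8 and 30.3 in peripheral retina. The groups overlapped, with a log2 difference of 0.23 ± 0.18 (adjusted p = 0.395 by limma). The other core protein, UQCRC2, was not called: its values were 141, 157, 133 and 161 in central and 149, 157 and 159 in peripheral retina, and its log2 difference was -0.07 ± 0.12. The accessory subunits UQCR, UQCRB, UQCRH and UQCRQ had differences of 0.38, -0.03, -0.18 and 0.06, none past the threshold, and the median of the complex was 0.15. Of these 8 names all but CYC1 share their start with another gene name in the tables, a feature described with NDUFA1 and NDUFA12 at the end. With such names left out, 2 members were higher in central retina.

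In complex IV no member passed, and the isoforms of subunit 4 pointed in opposite directions. COX4I1, the form present in most tissues, had 174, 134, 178 and 239 in central and 103.5, 112 and 141 in peripheral retina (log2 difference 0.58 ± 0.21, adjusted p = 0.0676 by limma). COX4I2, the form known from lung and for its induction by low oxygen, had 14.6, 13.3, 14.4 and 19.2 in central and 17.9, 26.2 and 22.5 in peripheral retina (log2 difference -0.50 ± 0.18, adjusted p = 0.0673 by limma). Each gene taken alone overlapped between the groups, COX4I1 through central replicate 2 and COX4I2 through central replicate 4. Their ratio within a library did not: COX4I2 over COX4I1 was 0.0839, 0.0999, 0.0808 and 0.0803 in central retina, against 0.173, 0.234 and 0.16 in peripheral retina. The means were 0.0862 ± 0.00926 in central and 0.189 ± 0.0395 in peripheral retina (SD, n = 4 and 3; two-sided exact permutation test, p = 0.0571, the smallest value that 35 assignments allow, and 0.114 after adjustment over the 2 ratios tested). The ratios of COX6B2 to COX6B1 and of SDHC to SDHB were also calculated but not tested, and the adjustment leaves them out. In whole retina the ratio of COX4I2 to COX4I1 was 0.111 and 0.105, and in whole eye 0.119 in both libraries, between the regional groups. Over the alternatives, limma's adjusted p ran from 0.0274 to 0.208 for COX4I1 and from 0.04605 to 0.253 for COX4I2.

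COX5A, which lies on the matrix side of complex IV, had 233, 309.7, 259.7 and 297 in central and 271, 246 and 251 in peripheral retina, a log2 difference of 0.09 ± 0.18. COX6B1, on the intermembrane side, had 294, 275, 334 and 436 in central and 221, 239.6 and 297 in peripheral retina, with overlap, and differed by 0.39 ± 0.17. Its testis-type relative COX6B2 differed by 0.00 ± 0.46. COX6B2 varied widely within each region, with 12.1, 27.8, 28.8 and 48.5 in central and 26.35, 14.55 and 46.7 in peripheral retina, which leaves its difference with a large error. COX8A, a small membrane subunit, had 437, 493, 589.6 and 717 in central and 371, 347 and 474 in peripheral retina, overlapping only through peripheral replicate 3 (log2 difference 0.48 ± 0.19, adjusted p = 0.0917 by limma). COX6C, COX7C and COX7AH differed by 0.04 ± 0.15, 0.38 ± 0.20 and 0.31 ± 0.16. Among the members named for complex IV without being its subunits, COX7A2L had 51.2, 66.2, 63.9 and 65.3 in central and 60.8, 61.8 and 67.9 in peripheral retina and COX4NB a log2 difference of -0.02 ± 0.11. NDUFA4 had 272, 384, 309.9 and 353 in central and 311, 312 and 298 in peripheral retina. None of these was called.

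**Figure D2:**
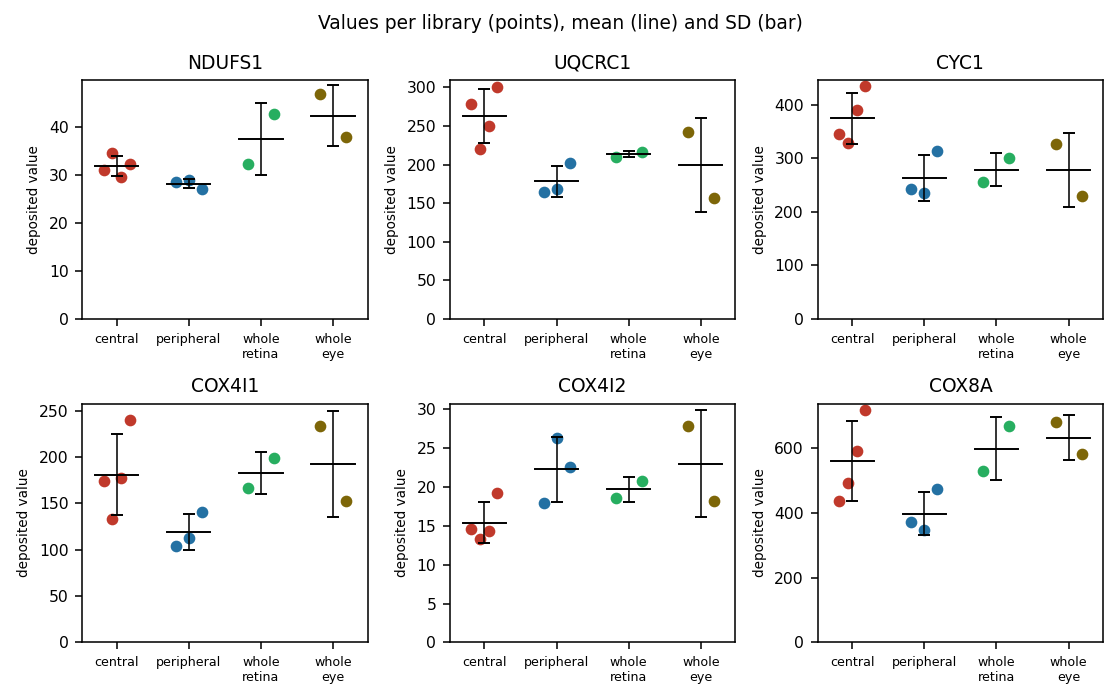
Deposited values (y axis, from 0, no stated unit) of NDUFS1, UQCRC1, CYC1, COX4I1, COX4I2 and COX8A in each library of the 4 groups (x axis); points are libraries, lines are means and bars are SD (n = 4 central, 3 peripheral, 2 whole retina and 2 whole eye). Central points lie above all peripheral points for NDUFS1, UQCRC1 and CYC1, and mostly below them for COX4I2.

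In complex V the catalytic head was represented by ATP5A1 and ATP5B, its alpha and beta subunits. ATP5B had 823, 858, 776 and 991 in central and 684, 652 and 735 in peripheral retina, without overlap, and ATP5A1 had 553, 604, 580.2 and 669.6 in central and 491, 439 and 580.0 in peripheral retina, with overlap. Neither passed (log2 differences 0.32 ± 0.15 and 0.26 ± 0.15, limma adjusted p = 0.155 and 0.24). ATP5D, of the central stalk, differed by 0.45 ± 0.20, and 10 of the 12 tested members of the complex had a positive difference, with a median of 0.20. The c ring, the rotor in the membrane, is encoded by ATP5G1, ATP5G2 and ATP5G3, whose mature proteins are the same. ATP5G1 had 133, 143, 163 and 193 in central and 109, 117 and 134 in peripheral retina (log2 difference 0.38 ± 0.16, adjusted p = 0.118 by limma), and ATP5G2 differed by 0.27 ± 0.13. ATP5G3 had 59.05, 104, 85.65 and 75.6 in central and 90.2, 83.2 and 77.5 in peripheral retina, with overlap and a difference of -0.07 ± 0.20. ATP5G1 made up 48.1% ± 3.05 of the 3 genes' summed values in central and 43.3% ± 2.66 in peripheral retina (SD, n = 4 and 3; two-sided exact permutation p = 0.114). Its share was 37.2% and 39.3% in whole retina and 41.4% and 37.8% in whole eye.

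**Figure D3:**
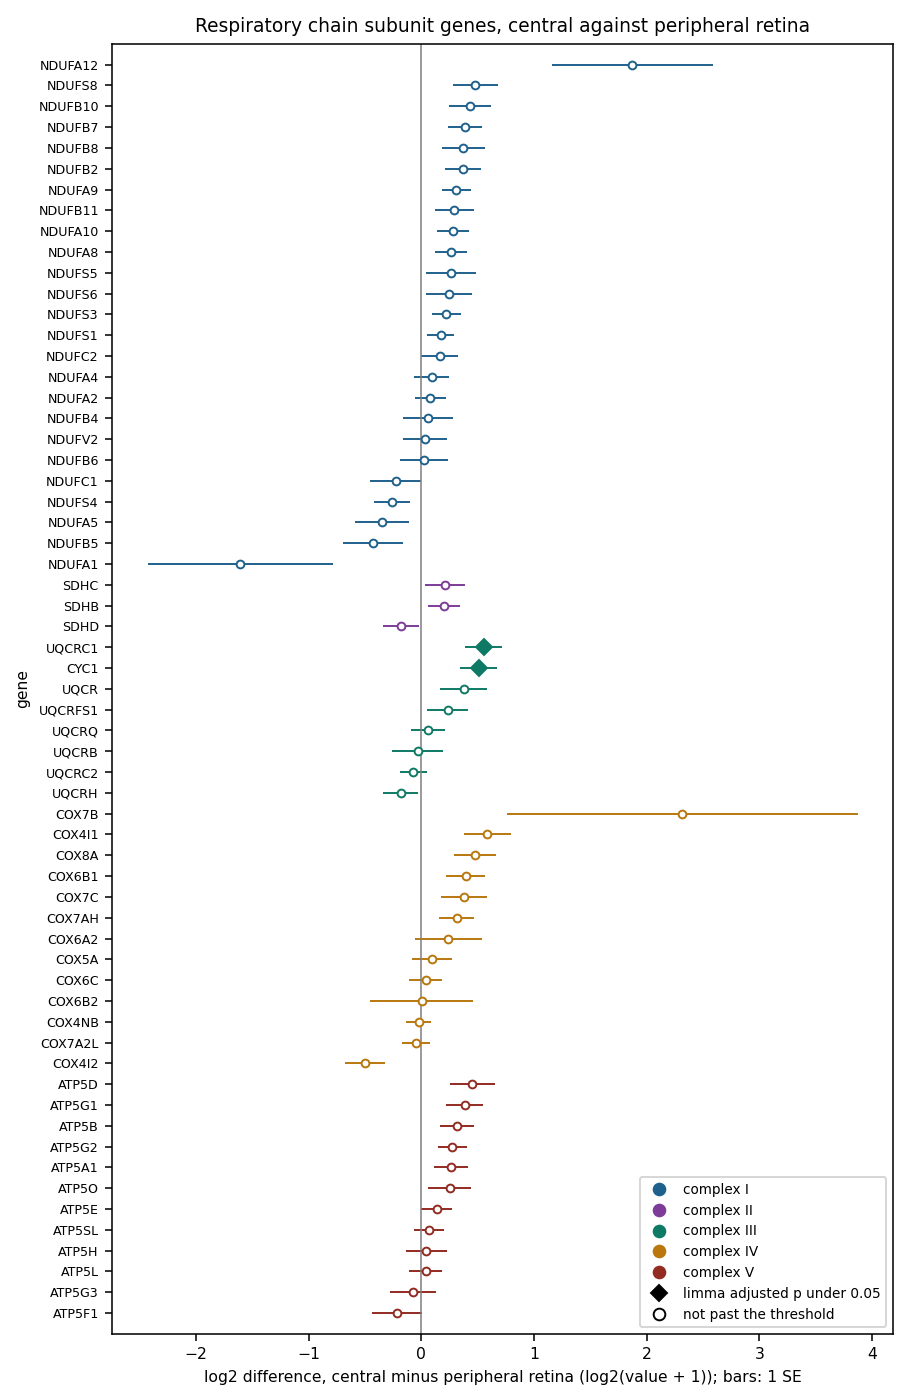
Log2 difference, central minus peripheral retina (x axis, log2(value + 1)), for 61 of the 62 tested members (y axis), ordered within complexes I to V; bars are 1 SE and filled diamonds have a limma adjusted p under 0.05. Most points lie right of 0, and the 2 filled ones are UQCRC1 and CYC1.

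None of the 3 calls held under every alternative. UQCRC1 lost its call without central replicate 1, 3 or 4 or peripheral replicate 1 or 2, at limma adjusted p-values of 0.0741, 0.0627, 0.0916, 0.117 and 0.122, and also under median ratio scaling (0.0538) and with the replicate block (0.0682). CYC1 lost it without central replicate 1, 3 or 4, peripheral replicate 1 or 2 or either whole retina, at 0.0633, 0.105, 0.12, 0.15, 0.1795, 0.0522 and 0.0518, and also with a pseudocount of 10 (0.0539), no filter (0.0615), quantile normalization (0.0525), median ratio scaling (0.0693) and the replicate block (0.08).

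Markers of cell types moved with the regions, between which 12.5% of all tested genes were called higher in central retina and 8.76% lower. Central retina had all 6 ganglion cell markers higher than peripheral retina, 3 of 7 rod markers, 3 of 4 Müller glia markers and 2 of 3 pigment epithelium markers were lower, and 1 of 5 cone markers was higher. Müller glia markers summed to 889.6 to 1153 in central and 1582 to 1828 in peripheral libraries. For cone markers the sums were 1611 to 2331 in central libraries and 1447 to 1772 in peripheral ones. The part of these markers' cells in the values of the subunit genes was not tested.

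Lists of other genes of mitochondrial energy supply were read in the same comparison, in which 12.5% of all tested genes were called higher and 8.76% lower. Assembly factors of complexes I, II, III and V, which help put the complexes together, had 0 calls among 7, 3, 1 and 4 tested genes. Among 14 assembly factors of complex IV, COX10, which makes its heme A precursor, was higher in central retina (log2 difference 0.42 ± 0.11) and COX19, a copper-handling factor, was lower (-0.37 ± 0.12). Of 16 genes of the tricarboxylic acid cycle and its entry step, DLST and OGDH, which encode parts of the oxoglutarate dehydrogenase complex, were higher (0.43 ± 0.09 and 0.75 ± 0.11), as was PC, pyruvate carboxylase (0.58 ± 0.16), and SUCLG2, a succinyl-CoA ligase subunit, was lower (-0.80 ± 0.15), with a median of 0.13 for the list. Mitochondrial ribosomal proteins had 3 higher of 61 (MRPL12 by 0.61 ± 0.13, MRPS2 by 0.45 ± 0.14 and MRPS34 by 0.47 ± 0.15), and a median of 0.10. Import factors had 3 higher of 18 (TIMM13 by 0.51 ± 0.16, TIMM44 by 0.43 ± 0.12 and TOMM40 by 0.47 ± 0.14). Of 10 genes for carriers, porins, electron transfer flavoproteins and related functions, the porin VDAC1 was higher (0.92 ± 0.15), and of 10 regulators of mitochondrial gene expression GABPA was lower (-0.45 ± 0.13). Shares called higher were 18.75% of cycle genes, 16.7% of import factors, 10% of carriers, 7.14% of complex IV assembly factors and 4.92% of mitochondrial ribosomal proteins. Shares called lower were 10% of regulators, 7.14% of complex IV assembly factors and 6.25% of cycle genes. None of these shares was tested against that of all genes. Of 15 entries for glycolysis, 9 were higher in central retina, with a median log2 difference of 0.63; PKM2 fills 2 of the 9, which differ by rounding. Triose phosphate isomerase (TPI1) differed by 0.92 ± 0.15 and GAPDH by 0.88 ± 0.19.

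Whole retina was next compared with whole eye, which holds the retina together with lens, cornea, muscle and other coats. No subunit gene passed the test: 0 of 62 were higher (background 0.168%) and 0 lower (background 2.1%) by limma, and 0 in either direction had an unadjusted p under 0.05, against 5.0% higher and 5.61% lower of all tested genes. The fitted differences leaned below 0, with 47 of 62 negative and a median of -0.15. Over all tested genes 6256 of 11933 were negative, with a median of -0.01. Every whole retina library lay above every whole eye library in 1 member, ATP5G2 (1.61%, background 14.0%), and below in 3, COX7B, NDUFB2 and NDUFS5 (4.84%, background 17.6%). With 2 libraries a group and whole retina replicates 0.43 apart in the median member, differences of this size were within the spread. ATP5G2 had 141 and 149 in whole retina and 136 and 128 in whole eye. The member with the smallest p was NDUFB2, a membrane-arm subunit of complex I, at 139 and 213 in whole retina and 236 and 223 in whole eye (-0.41 ± 0.21, adjusted p = 0.531 by limma).

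By complex, the medians of whole retina against whole eye were -0.22 for complex I, -0.13 for complex II, -0.10 for complex III, -0.09 for complex IV and -0.07 for complex V. The core subunits overlapped in each complex. NDUFS1 had 32.25 and 42.8 in whole retina and 46.8 and 38.0 in whole eye, and SDHB had 84.8 and 113 in whole retina and 117 and 99.0 in whole eye. CYC1 had 257 and 301 in whole retina and 327 and 229.6 in whole eye, and COX4I1 167 and 199 in whole retina and 233 and 152 in whole eye. In each of these genes whole eye replicate 1 exceeded replicate 2 and whole retina replicate 2 exceeded replicate 1. ATP5B had 813 and 1066 in whole retina and 1067 and 831 in whole eye. For ATP5B the 95% interval of the log2 difference ran from -0.45 to 0.41 and for CYC1 from -0.45 to 0.49. COX6A2, the heart and skeletal muscle form of subunit 6a, had 1.06 and 2.54 in whole retina and 6.27 and 1.83 in whole eye (log2 difference -0.75 ± 0.39, adjusted p = 0.544 by limma). Its highest value was in whole eye replicate 1. Skeletal muscle markers (3 genes, all 3 lower in whole retina) summed to 9.87 to 11.5 in whole retina and 44.4 to 181 in whole eye. In the regions they summed to 15.7 to 21.5 in central and 18.7 to 27.6 in peripheral libraries, above whole retina. Of them ACTA1 was called higher in central than in whole retina (background 18.9%), and none was called in peripheral retina. COX7AH, named in the tables by an older symbol for the heart form of subunit 7a, had 62.75 and 85.5 in whole retina and 95.4 and 78.9 in whole eye (log2 difference -0.24 ± 0.21). In the lists of assembly factors, cycle enzymes, carriers, regulators, import factors, mitochondrial ribosomal proteins and glycolytic enzymes, 0 genes were called between whole retina and whole eye.

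The following core and isoform genes overlapped between whole retina and whole eye as well. In complex III, UQCRC1 had 210.3 and 216 in whole retina and 242 and 156 in whole eye, and UQCRFS1 had 48.05 and 70.6 in whole retina and 76.6 and 52.8 in whole eye. In complex IV, COX5A had 185 and 322 in whole retina and 279.8 and 242 in whole eye, and COX4I2 had 18.5 and 20.8 in whole retina and 27.8 and 18.1 in whole eye. COX6B1 had 314 and 382 in whole retina and 421 and 352 in whole eye, and COX6B2 had 12.5 and 8.49 in whole retina and 11.8 and 5.34 in whole eye. In these genes too whole eye replicate 1 held the higher of the 2 whole eye values. COX8A had 529 and 666 in whole retina and 681 and 581 in whole eye, and NDUFA4 had 386 and 566 in whole retina and 478 and 428 in whole eye. COX7A2L, which acts in the joining of complexes III and IV, had 63.25 and 74.5 in whole retina and 60.8 and 75.0 in whole eye. In complex V, ATP5A1 had 664 and 844 in whole retina and 813 and 624 in whole eye. Of the c ring genes, ATP5G1 had 135 and 193 in whole retina and 188 and 156 in whole eye, and ATP5G3 had 86.4 and 149 in whole retina and 130.1 and 128 in whole eye. None of these was called, and their fitted log2 differences ran from -0.19 to 0.33.

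The regional samples were then compared with whole retina. SDHC of complex II, COX6C and COX7C of complex IV and ATP5L of complex V were lower in the regions, where their means were 0.125 to 0.426 of those in whole retina. Of 62 members, 1 was higher in central than in whole retina (background 18.9%) and 16 were lower (25.8%, background 29.7%), with a median of -0.18 against -0.10 over all genes. In peripheral retina 0 were higher than in whole retina (background 9.83%) and 15 were lower (24.2%, background 24.3%), with a median of -0.39 against -0.08 over all genes. The share of members called lower was thus close to that of all genes in both, and both comparisons use the same 2 whole retina libraries. Without adjustment, 20 members (32.3%) had a p under 0.05 in the lower direction in central and 27 (43.55%) in peripheral retina. Of all tested genes 33.3% and 29.1% did. In the higher direction 3 members (4.84%) and 2 (3.23%) did, against 21.8% and 14.7% of all tested genes. Under quantile normalization, which moves the median of all genes to 0.11 and 0.16, the split was 8 higher and 9 lower in central retina and 4 higher and 10 lower in peripheral retina. Over all tested genes that fit called 30.5% higher and 21.6% lower for central retina, and 26.1% higher and 17.5% lower for peripheral retina, all above the members' shares of 12.9%, 14.5%, 6.45% and 16.1%. Whole retina libraries also carried smooth muscle, lens and pigment epithelium markers at the sums given above. Their log2 values correlated across genes, which are not independent of each other, at 0.914 to 0.955 with those of whole eye, at 0.803 to 0.834 with those of central retina and at 0.838 to 0.875 with those of peripheral retina. The part of those tissues in the differences below was not tested.

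Among the complex I names, NDUFA4 was lower at -0.51 ± 0.18 in central and -0.61 ± 0.19 in peripheral retina, NDUFA5 in central retina at -0.90 ± 0.27, and NDUFB7 in peripheral retina at -0.58 ± 0.18. NDUFB8, a membrane-arm subunit, was the only member higher, at 43.5, 66.25, 69.0 and 79.6 in central retina and 38.3 and 44.3 in whole retina (0.60 ± 0.22, adjusted p = 0.0385 by limma), with overlap through central replicate 1. Medians by complex, I to V, were -0.10, -0.57, -0.32, -0.16 and -0.44 in central and -0.31, -0.66, -0.41, -0.47 and -0.52 in peripheral against whole retina.

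In complex II, SDHC, a membrane anchor of succinate dehydrogenase, had 3.55, 3.68, 2.82 and 2.81 in central and 2.38, 3.45 and 2.16 in peripheral retina, against 21.0 and 21.5 in whole retina, and 14.5 and 24.0 in whole eye. All 7 regional libraries lay below all 4 of the others. Its log2 differences were -2.41 ± 0.20 in central and -2.62 ± 0.21 in peripheral against whole retina (adjusted p = 3.16e-06 and 4.5e-06 by limma). SDHB, the iron-sulphur subunit, passed with smaller fitted differences: it had 64.5, 75.1, 61.6 and 85.6 in central and 63.8, 60.6 and 61.0 in peripheral retina, against 84.8 and 113 in whole retina, log2 differences of -0.46 ± 0.16 and -0.66 ± 0.17 (limma adjusted p = 0.0336 and 0.0109). The ratio of SDHC to SDHB was 0.0328 to 0.0551 in central retina, 0.0354 to 0.057 in peripheral retina, 0.19 and 0.248 in whole retina and 0.124 and 0.242 in whole eye. SDHD, the other anchor, had 29.3, 36.3, 28.7 and 28.2 in central and 34.2, 42.1 and 28.8 in peripheral retina, against 40.4 and 52.1 in whole retina. It was lower in central retina (-0.57 ± 0.18, adjusted p = 0.021 by limma) and not called in peripheral retina (-0.40 ± 0.19).

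In complex III, UQCRFS1 was lower in both regions, at -0.58 ± 0.21 in central and -0.82 ± 0.22 in peripheral retina, and UQCRC2 and UQCRH, a hinge protein that binds cytochrome c1, were lower in central retina at -0.44 ± 0.14 and -0.65 ± 0.17. CYC1 and UQCRC1 had positive differences in central retina (0.42 ± 0.19 and 0.29 ± 0.18) that did not pass.

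In complex IV the small membrane subunits COX7C and COX6C were lower in the regions. COX7C had 24.45, 45.4, 32.8 and 35.7 in central and 28.0, 28.3 and 21.6 in peripheral retina, against 93.3 and 126 in whole retina (log2 differences -1.65 ± 0.23 and -2.03 ± 0.24, limma adjusted p = 0.000125 and 6.98e-05). COX6C had 93.6, 106, 113 and 121 in central and 94.4, 121 and 101 in peripheral retina, against 227 and 282 in whole retina (-1.22 ± 0.17 and -1.26 ± 0.18, limma adjusted p = 0.000117 and 0.000238). No regional library of either gene reached the lower whole retina library. COX7AH had 37.4, 33.2, 34.7 and 44.7 in central and 25.7, 28.7 and 36.0 in peripheral retina, against 62.75 and 85.5 in whole retina (-0.96 ± 0.18 and -1.27 ± 0.19, limma adjusted p = 0.00112 and 0.000366). COX6A2 had 0, 0.58, 0.49 and 0.36 in central and 0.23, 0 and 0.18 in peripheral retina, against 1.06 and 2.54 in whole retina. It was called lower in both regions (limma adjusted p = 0.0291 and 0.0194). Its mean reached 1 only in whole retina (1.8) and whole eye (4.05), against 0.358 in central and 0.137 in peripheral retina. COX6A2 was thus tested only through the groups where it is high. With a pseudocount of 10 both calls were lost (limma adjusted p = 0.144 and 0.135). The skeletal muscle sums given above were higher in the regions than in whole retina. COX4I1, COX5A and COX8A did not pass in either region. Against whole retina their log2 differences were -0.04 ± 0.24, 0.16 ± 0.20 and -0.11 ± 0.21 in central retina, and -0.62 ± 0.25, 0.07 ± 0.21 and -0.59 ± 0.22 in peripheral retina (limma adjusted p = 0.0744, 0.84 and 0.0618 in peripheral retina). All 3 peripheral libraries lay below both whole retinas for COX4I1 and COX8A, whereas central libraries overlapped with them. COX6B2 ran the other way, with differences of 1.27 ± 0.52 in central and 1.27 ± 0.55 in peripheral retina that missed the threshold (adjusted p = 0.0626 and 0.0969 by limma).

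In complex V, ATP5L, subunit g of the membrane part, had 57.3, 69.9, 61.0 and 75.6 in central and 59.2, 67.8 and 64.9 in peripheral retina, against 142 and 216 in whole retina (-1.40 ± 0.17 and -1.44 ± 0.18, limma adjusted p = 4.58e-05 and 9.99e-05). ATP5E, the epsilon subunit of the central stalk, had 138, 183, 173 and 183 in central and 145, 161 and 152 in peripheral retina, against 262 and 342 in whole retina (-0.83 ± 0.16 and -0.97 ± 0.16, limma adjusted p = 0.00111 and 0.000896). Of the c ring genes ATP5G2 was lower, with 78.05, 79.4, 88.5 and 109.8 in central and 67.8, 71.6 and 79.05 in peripheral retina, against 141 and 149 in whole retina (-0.71 ± 0.14 and -0.99 ± 0.15, limma adjusted p = 0.00183 and 0.000468). ATP5G1 had differences of -0.05 ± 0.19 and -0.43 ± 0.20 and ATP5G3 of -0.51 ± 0.23 and -0.44 ± 0.24, and neither passed. ATP5B did not pass in either region (-0.12 ± 0.17 and -0.43 ± 0.18), and ATP5A1 passed in peripheral retina, at 491, 439 and 580.0, against 664 and 844 in whole retina (-0.58 ± 0.18, adjusted p = 0.0291 by limma). ATP5F1, a peripheral stalk subunit, was lower in central retina at -0.68 ± 0.25.

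**Figure D4:**
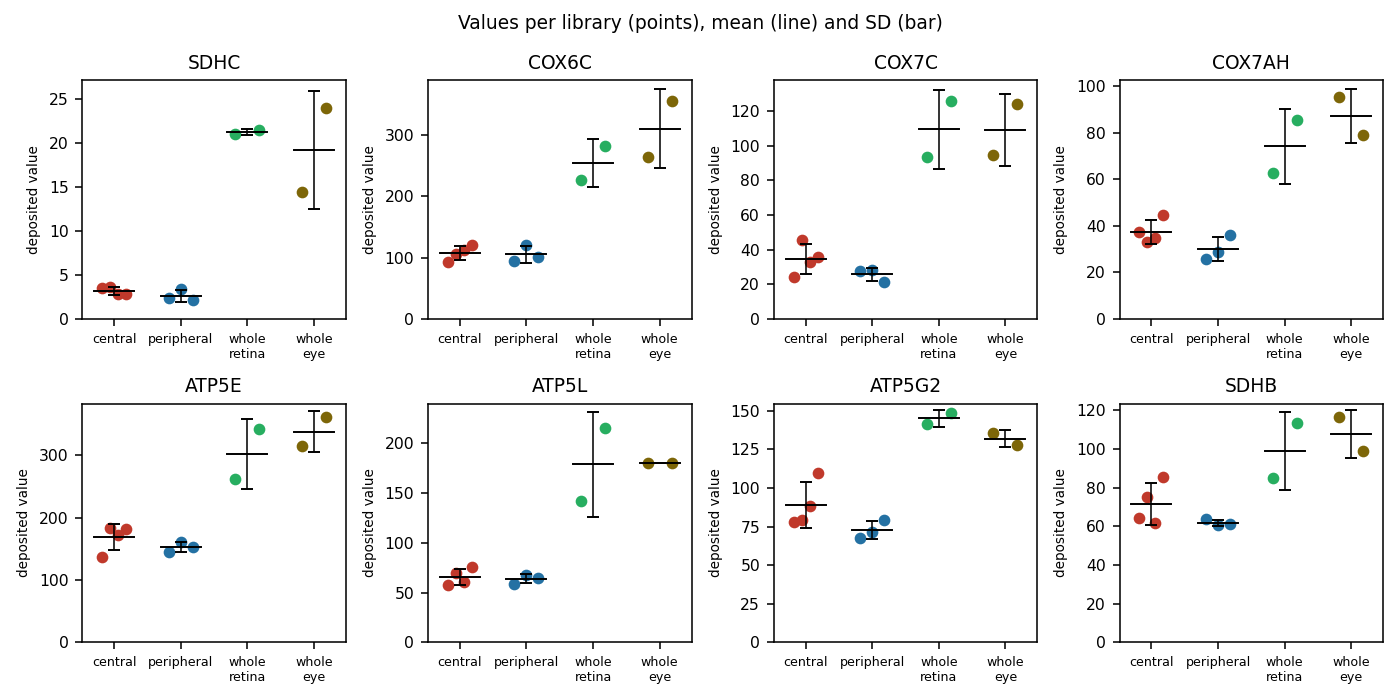
Deposited values (y axes, from 0, no stated unit) of SDHC, COX6C, COX7C, COX7AH, ATP5E, ATP5L, ATP5G2 and SDHB in each library of the 4 groups (x axes); points are libraries, lines are means and bars are SD (n = 4 central, 3 peripheral, 2 whole retina and 2 whole eye). In all but SDHB every central and peripheral point lies below every whole retina and whole eye point.

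Whole retina replicate 2 decided many of these calls. Without it, 9 of the 16 lower calls of central retina were lost (ATP5F1, COX6A2, NDUFA4, NDUFA5, SDHB, SDHD, UQCRC2, UQCRFS1 and UQCRH, limma adjusted p between 0.139 and 0.441), as were 7 of the 15 of peripheral retina (among them ATP5A1, COX6A2, NDUFA4, NDUFB7, SDHB and UQCRFS1, between 0.111 and 0.276). Leaving out either whole retina leaves that group with 1 library, and the shares of all genes called in those fits are not given. Whether the change in calls was particular to the subunit genes was therefore not tested. Calls of SDHC, COX7C, ATP5L, COX6C, COX7AH, ATP5E and ATP5G2 held under every alternative tried in central and in peripheral retina, and that of NDUFA12 in peripheral retina under those that kept it apart from NDUFA1. Other settings cost calls as well. Of the lower calls, quantile normalization lost 7 in central and 5 in peripheral retina, among them NDUFA4 (limma adjusted p = 0.27 and 0.525). Median ratio scaling lost 5 and 4, the fit of only the 2 groups compared 4 and 3, and the replicate block 3 and 3. NDUFB8 was lost with no filter, only the 2 groups compared or the block (0.0522, 0.0641 and 0.153). Other libraries cost fewer calls than whole retina replicate 2. In central retina, 5 were lost without central replicate 1 (0.0669 to 0.0914) or 3 (0.0539 to 0.086), 3 without central replicate 4 (0.0512 to 0.0785), and ATP5F1 alone without peripheral replicate 2 or whole eye replicate 1 or 2 (0.0544, 0.0515 and 0.0515). In peripheral retina, 4 were lost without peripheral replicate 1 (0.0619 to 0.0824) or 2 (0.0579 to 0.119), 2 without peripheral replicate 3 (0.0672 to 0.0688), 1 without central replicate 3 and NDUFB7 alone without whole retina replicate 1 (0.0561). NDUFB8 was lost without central replicate 2, 3 or 4, peripheral replicate 2 or whole retina replicate 1 or 2 (0.0661, 0.0823, 0.086, 0.052, 0.1835 and 0.0807).

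NDUFA1, a small subunit of the membrane arm of complex I, had 6.76, 10.95, 95.6 and 116 in central retina, 91.0, 102 and 95.7 in peripheral retina, 14.8 and 25.9 in whole retina and 17.5 and 22.9 in whole eye. NDUFA12, an accessory subunit of the matrix arm whose name starts with the same letters, had 56.3, 67.3, 6.10 and 7.54 in central retina, 4.27, 6.17 and 4.78 in peripheral retina, 61.6 and 92.6 in whole retina and 85.65 and 94.05 in whole eye. NDUFA1 was the higher of the pair in 5 libraries (central replicates 3 and 4 and all 3 peripheral ones) and NDUFA12 in the other 6, which divides the central group. Over all genes with a value of at least 5, NDUFA1 was the only one that was more than 3-fold higher in each of the 5 libraries than in each of the 6, and NDUFA12 the only one that was more than 3-fold lower. Their sum was steadier: 63.1, 78.2, 102 and 123 in central, 95.3, 109 and 100.5 in peripheral, 76.4 and 119 in whole retina and 103 and 117 in whole eye libraries. The call of NDUFA12 as lower in peripheral than in whole retina (log2 difference -3.67 ± 0.85, adjusted p = 0.0064 by limma) was not seen in the sum, under which 14 members were lower. Whether values were exchanged between names was not tested.

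COX7B, a small membrane subunit of complex IV, was listed at 0.52 in peripheral replicate 2 and at 0.60 in whole retina replicate 1, and between 95.3 and 161 in the other 9 libraries. Its values were 103, 144, 123 and 131 in central, 108, 0.52 and 95.3 in peripheral, 0.60 and 138 in whole retina and 161 and 148 in whole eye libraries. It was the only gene of the tables more than 8-fold lower in both of these libraries than in all 9 others, and 0 genes were more than 8-fold higher. Its log2 differences therefore had wide errors, 2.32 ± 1.56 for central against peripheral retina and -3.38 ± 2.04 for whole retina against whole eye, and none was called. The libraries in which COX7B was low are not those that divide NDUFA1 from NDUFA12.

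**Figure D5:**
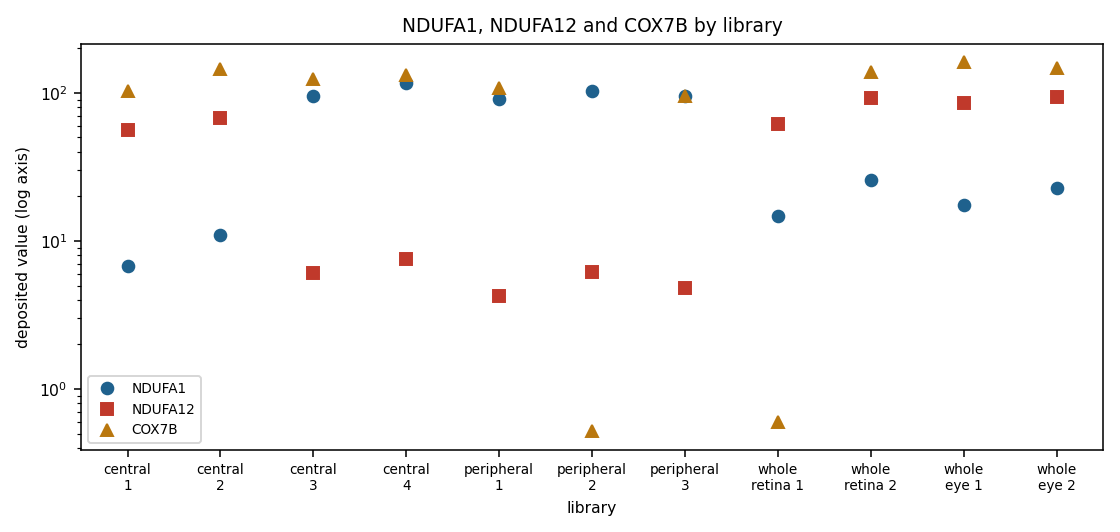
Deposited values (y axis, log scale, no stated unit) of NDUFA1, NDUFA12 and COX7B in each of the 11 libraries (x axis, groups with replicate numbers). NDUFA1 is the higher of the pair in central replicates 3 and 4 and all 3 peripheral libraries and NDUFA12 in the other 6, and COX7B lies below 1 in 2 libraries.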

How the data were processed

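RNA sequencing libraries of whole eye, whole retina, central retina and peripheral retina took their group from the labelled tissue. Per the file headers, each deposited table holds 1 normalized signal value per gene, which the authors had normalized by a method left unstated. The aligner GSNAP and the counting tool HTSeq appear in the submitters' processing notes without a version. Which genome build and annotation were used is likewise not given in the sources used here. No coordinates or sequences are printed. Of 13083 entries per table, 27 marked ND and 61 exact duplicates (1 of them a second UQCRH entry) were dropped. Of the 63 member names, 47 are symbols of the RefSeq annotation of the species, and the other 16, such as ATP5A1 and UQCR, are older ones.

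limma 3.58.1 (R 4.3.3) was fitted to log2(value + 1) of all 11933 genes whose mean reached 1 in some group, in 1 model of 11 libraries in 4 groups with a variance trend. Tests were two-sided with Benjamini-Hochberg adjustment over all tested genes of a comparison and a threshold of 0.05. The pseudocount understates differences of genes at low values. The fit was also run on simulated data, but no outcome is given here, so no call rests on it. Depth is unknown, so no counting intervals are given.

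The members, gene lists and comparisons were chosen with earlier results of these data known. Values in every library are given for core subunits (NDUFS1, SDHB, CYC1, UQCRFS1, UQCRC1, COX4I1, COX5A, ATP5A1, ATP5B), for isoform sets (COX4I, COX6A, COX6B, COX7A, COX7B, COX8, NDUFA4, ATP5G) and for the 2 members with the smallest p per complex and direction among calls in central against peripheral retina or whole retina against whole eye. 1 member counted in the totals is not reported here. Other named members were chosen after their values were seen. Alternatives were another pseudocount (0.1 or 10), no filter, quantile or median ratio scaling, only the 2 groups compared, no variance trend, a block for the replicate number, each library left out, and members with shared name starts left out. Summing NDUFA1 and NDUFA12 and leaving out 6 members were added after seeing the data. Further tools were pandas 2.3.3, numpy 2.4.6 and matplotlib 3.10.9.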

Additional observations from a re-analysis of the deposited data

Results flagged for a closer look

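In central retina, the group with 4 libraries, the most distant library was set against the range of the group. This was done for 37 named members and the ratio of COX4I2 to COX4I1. The 37 are not the same set as the 36 members whose results are counted in the next section. Chance alone marks about 1 in 20 such groups, and 3 of the 38 were marked. COX7A2L was low in central replicate 1, at 51.17, where the other 3 libraries lay between 63.9 and 66.2. NDUFB7, an accessory subunit of complex I, was high in central replicate 4, at 157.25, where the others lay between 102 and 106.3. SDHD was high in central replicate 2, at 36.3, where the others lay between 28.2 and 29.3.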

How the results depend on the processing

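Of 144 results of 36 named members, 35 were called, 15 of these held under each of the 20 alternatives that gave them a value (NDUFA12 in peripheral retina has none once summed with NDUFA1) and 20 were lost under at least 1; 26 others crossed the threshold under at least 1, and 0 called values reversed. Between central and peripheral retina, 1 member was higher under median ratio scaling and 1 with the replicate block, and 1 was lower under quantile normalization and 1 with the block; leaving out 1 library gave 0 to 3 higher and 0 to 1 lower. Between central and whole retina, 0 members were higher with no filter, 0 with only the 2 groups compared and 0 with the block, and 8 higher and 9 lower under quantile normalization; leaving out 1 library gave 0 to 3 higher and 7 to 22 lower. Between peripheral and whole retina, 4 were higher under quantile normalization and 1 with only the 2 groups compared, and leaving out 1 library gave 0 to 1 higher and 8 to 24 lower. Whole retina against whole eye gave 0 and 0 throughout. The causes were not tested. Where a group was left with 1 library, that library was assumed to vary like the other groups. Replicate numbers gave no consistent pairing: residuals of same-numbered central and peripheral libraries correlated at -0.139, -0.0609 and 0.357. Central replicates 1, 2 and 3 each correlated best with a different peripheral library, replicates 2, 1 and 3 (0.363, 0.347 and 0.357). Central replicate 4 correlated best with peripheral replicate 3 (0.225). Whether samples pair under other numbers was not tested, and no fit used such pairs. With the block, 14 members were lower in central and 20 in peripheral than in whole retina. Of all 11933 tested genes, 3282 and 2897 were lower with the block, against 3549 and 2904 in the main fit. Counts over all genes are not given for the fits without 1 library, so the member counts there have no background. Both whole retinas and both whole eyes limit every value that rests on them to 2 libraries, and absolute depth is unknown.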
